A study of Rattus norvegicus with 10 samples.

Results

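The messenger RNAs (mRNAs) that encode the microRNA (miRNA) processing machinery were examined in rat milk whey and serum. The members were taken by gene name: every probe of the array that carried the name Dicer1, Drosha (also under its older name Rnasen), Dgcr8, Xpo5, Ran, Tarbp2 or Ago1 to Ago4 (also under the older names Eif2c1 to Eif2c4). This gave 11 of the 41012 probes, for 9 of the 10 genes and of the 35469 distinct gene names on the array, and none carried the name Dicer1. Whey came from 3 adult F344/N rats, an inbred strain, on d 2, d 9 and d 16 after they had given birth, and serum from these 3 animals on d 21. No group had an altered gene, and the treatment stated was the oxytocin and light anaesthesia used for milking. Whey is the fluid left once cells, fat and casein are removed from milk by centrifugation and fine filters, so its RNA carries no cell type label, and in such RNA fewer contributing cells and less RNA per cell cannot be told apart. Each whey sample had its own array, which gives n = 3 per day, whereas the RNA of the 3 serum samples was mixed on 1 array, so serum has no replicate and no test.

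Mature miRNAs are made in steps. In the nucleus the enzyme Drosha and its RNA-binding partner Dgcr8 cut hairpins out of long primary transcripts. Exportin 5, encoded by Xpo5, carries the hairpins to the cytoplasm together with the small GTPase Ran in its GTP-bound form. There Dicer, with the RNA-binding protein Tarbp2, trims them, and an Argonaute protein (Ago1 to Ago4) takes up 1 strand and is guided by it to target mRNAs. Milk whey is rich in miRNAs, many of them in vesicles, while the level of mRNAs for the proteins that make them is a separate quantity and is the one measured here.

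Each probe is a single DNA strand of 60 bases, and the sequences below are those of Drosha, Tarbp2 and Ago2, which were measured in whey, and of Ago3 and Ago4, the machinery probes that lie on each other. Drosha had 2 probes, which lie 46.3 kb apart on chromosome 2 of the rat build rn4, at chr2:62438476-62440378 and chr2:62392084-62392143. Tarbp2 was measured at chr7:141272639-141272826 and Ago2 at chr7:110828267-110828326. Ago3 (chr5:145718441-145718500) and Ago4 (chr5:145872755-145872949) lie at the ends of a stretch of 154.5 kb that also holds both Ago1 probes, at chr5:145796487-145796546 and chr5:145810071-145815473. The capitals in the Ago3 and Ago4 probes mark the 33 bases over which these probes lie on each other, of which 26 (78.8%) are the same, with at most 6 identical bases in a row.
Drosha, probe A_44_P445521: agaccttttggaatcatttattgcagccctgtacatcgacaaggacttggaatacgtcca
Drosha, probe A_43_P21509: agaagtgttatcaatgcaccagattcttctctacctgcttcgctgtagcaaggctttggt
Tarbp2, probe A_42_P589680: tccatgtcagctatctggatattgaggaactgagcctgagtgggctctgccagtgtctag
Ago2, probe A_44_P344487: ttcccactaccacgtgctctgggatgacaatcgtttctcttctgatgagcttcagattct
Ago3, probe A_44_P260555: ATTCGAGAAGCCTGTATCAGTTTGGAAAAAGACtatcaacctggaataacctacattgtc
Ago4, probe A_44_P426904: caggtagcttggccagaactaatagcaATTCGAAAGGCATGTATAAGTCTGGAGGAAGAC

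Among all 41012 probes, no other pair with a machinery probe had 30 or more bases that lay on each other without gaps at 75% identity or above, on either strand. Ran (chr12:28736934-28736992), Dgcr8 (chr11:84730710-84730769) and Xpo5 (chr9:10308340-10309867) had 1 probe each and, like the Ago1 probes, are given by position alone. A position longer than the probe, such as the 1903 bases of the first Drosha probe, is the span of the probe on the genome as the array's design gives it. Whether a probe lies in an exon's coding part or in an untranslated region is not given in the files.

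Signals are given below as log2 of the quantile normalized processed signal, which is comparable between arrays for the same probe, but not between probes. The arrays differed in brightness: on the linear scale their 75th percentiles lay between 12.5 and 83.2 for the 9 whey arrays and at 4.11 for serum. The whey arrays had 10735 to 18042 probes well above background, a flag set by the scanner software, and the serum array 6203. All 6 milk epithelial markers (Csn1s1, Csn2, Csn3, Lalba, Wap and Glycam1, which encode milk proteins) were well above background on every whey array. Of the erythroid markers 0 to 1 of 3 were, and of the platelet markers 0 to 2 of 3. The platelet marker Pf4 was well above background on 3 of 3 arrays on d 2 and on d 9, and on 2 of 3 on d 16. On the serum array 3 of 3 erythroid and 3 of 3 platelet markers were well above background, and so were the 6 milk markers, with a summed normalized signal of 6890 against 1036786 to 1434416 in whey. The d 16 whey arrays and the serum array shared 1 slide with a later scan day, so d 16 cannot be told apart from that slide and scan.

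The machinery was only partly measurable. A gene counted as detected on a day, or in serum, if 1 or more of its arrays there showed a probe well above background whose processed signal exceeded 20. In this way 4 of the 9 genes were detected on d 2 (Drosha, Dgcr8, Ran and Tarbp2), while d 9 and d 16 had 5 each (these with Ago2), and serum had 1 (Ran). Of all probes on the array, 28.7% passed this rule on d 2, 39% on d 9, 32.4% on d 16 and 8.62% in serum. With a minimum signal of 100, 2 genes (Ran and Tarbp2) were detected on each day and 1 in serum. On single whey arrays the number of machinery genes detected ran from 2 to 5, and the array with the most probes above background, d 9 whey of dam 3, had 5.

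**Figure D1:**
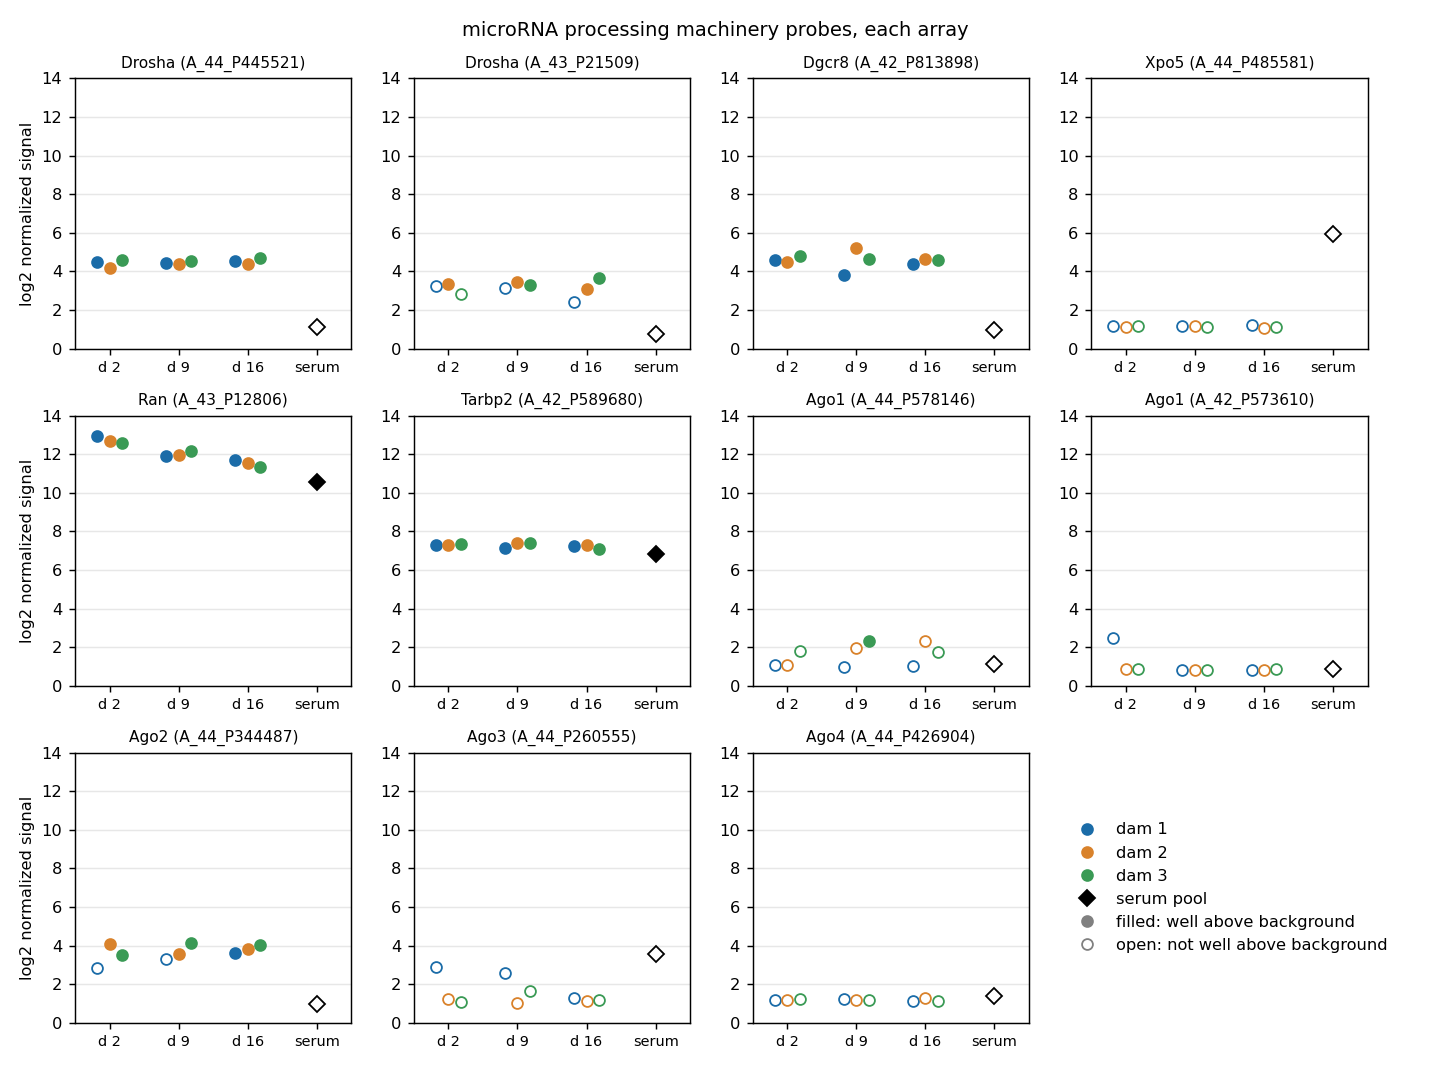
Log2 normalized signal (vertical axis) of each of the 11 machinery probes on each array, by day and dam, with the serum pool at the right of each panel. Filled points are well above background: Ran falls from 12.56 to 12.92 on d 2 to 11.35 to 11.68 on d 16, the Tarbp2 points lie between 7.06 and 7.41 in whey, and Xpo5, Ago3 and Ago4 have open points alone.

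Ran was the only member whose level was called different between days. Besides hairpin export, Ran drives most traffic of proteins and RNAs through the nuclear pores and takes part in spindle assembly. Its log2 signal was 12.92, 12.67 and 12.56 in d 2 whey of dams 1, 2 and 3. It was 11.88, 11.98 and 12.17 in d 9 whey, and 11.68, 11.56 and 11.35 in d 16 whey. All values of d 2 lay above all values of d 9, and these above all values of d 16. The means were 12.72 ± 0.18 on d 2, 12.01 ± 0.15 on d 9 and 11.53 ± 0.17 on d 16 (SD, n = 3). The processed signals before normalization overlapped, at 4092 to 7186 on d 2, 3405 to 17572 on d 9 and 2885 to 5449 on d 16, so the order of the days rests on the scaling between arrays.

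From d 2 to d 9 Ran fell by 0.70 on the log2 scale (SE 0.15, 1.63-fold lower, limma adjusted p = 0.0193), and it was lower in 3 of 3 dams. By d 16 the value fell by 1.19 from that of d 2 (SE 0.15, 2.28-fold lower, limma adjusted p = 0.00172), again in 3 of 3 dams. The change from d 9 to d 16 was -0.48 (95% interval -0.83 to -0.13), with a limma adjusted p of 0.157 that did not pass the threshold of 0.05, although all 3 dams were lower on d 16. The F test over the 3 days passed, with an adjusted p of 0.00437. Ran was thus 1 of 6 machinery probes called from d 2 to d 9, where 17.6% of all 16852 tested probes were called and 6.36% were called lower. It was 1 of 6 from d 2 to d 16, where 28.5% were called and 12.4% were called lower. Between d 9 and d 16, 0 of 6 were called by limma and 0 by the Tukey-Kramer test, where limma called 1.42% of all tested probes. An unadjusted limma p under 0.05 was found for 1 of 6 (Ran), a share that was not counted over all tested probes. Ran was also the only one of the 6 probes without overlap between days, in each comparison, where 38.8%, 48.2% and 29.3% of all tested probes had none.

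The steps were of unequal size in the 3 dams. In dam 1 the log2 change was -1.03 between d 2 and d 9 and -0.21 between d 9 and d 16. In dam 2 these changes were -0.69 and -0.42. In dam 3 they were -0.39 and -0.82. Over the whole span the 3 dams were close to each other, at -1.24, -1.11 and -1.21. With 1 array per dam and day, the difference in timing was not tested.

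**Figure D2:**
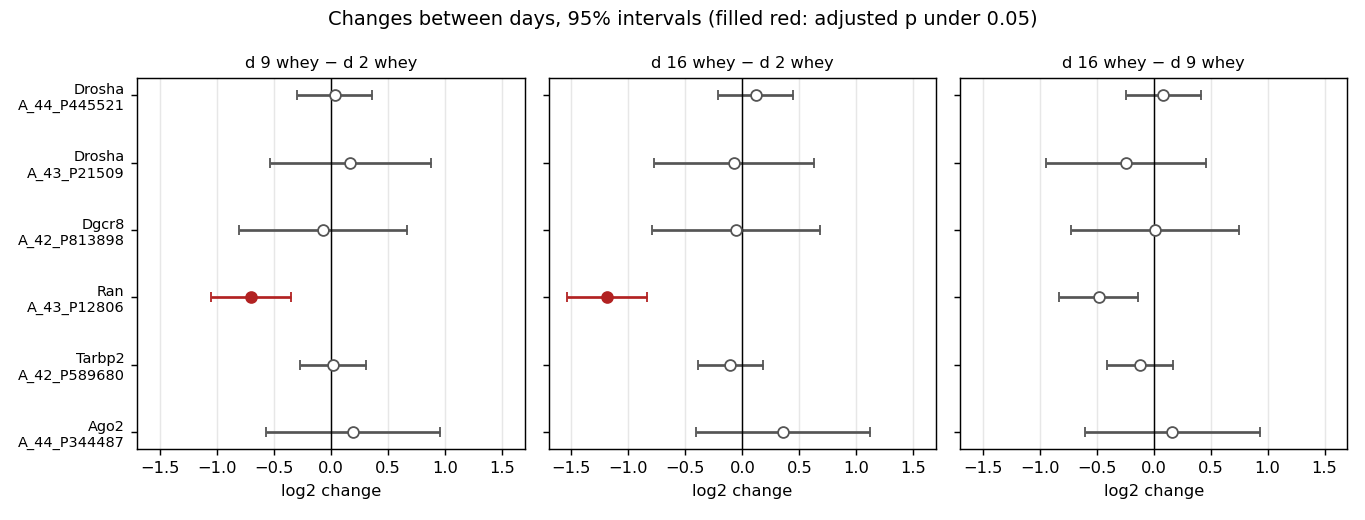
Log2 change (horizontal axis) of the 6 machinery probes tested between days, with 95% intervals from limma. Filled red points passed an adjusted p of 0.05: Ran at -0.70 and -1.19 on d 9 and d 16 against d 2, while the intervals of the other 5 probes include 0 in each panel.

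The d 9 call of Ran was close to the threshold. It passed in 16 of 22 alternative settings, and the d 16 call in 20 of 21. Without d 2 whey of dam 2 the d 9 change was -0.73 (adjusted p = 0.0542), without d 9 whey of dam 1 it was -0.64 (adjusted p = 0.0504), and without d 9 whey of dam 2 it was -0.69 (adjusted p = 0.0666). With slide as a fixed block it was -0.55 (adjusted p = 0.225), an estimate that rests on the slide that holds d 2 whey of dam 3 beside the d 9 arrays. On that slide all 3 d 9 values lay below the d 2 value of 12.56. With arrays scaled to spike-in control RNA in place of quantile normalization, the d 9 change was 0.82 (adjusted p = 0.294) and the d 16 change -0.61 (adjusted p = 0.708). Under that scaling the median of all tested probes itself moved by 1.55 on d 9 and by 0.59 on d 16 against d 2, compared with 0.11 and 0.04 with quantile normalization. Relative to the median probe, Ran was lower under every scaling tried. The d 9 difference ran from -0.82 to -0.73 and the d 16 difference from -1.23 to -1.18 over the 4 scalings. Percentile and spike-in scaling each shift all probes of an array by the same amount, so relative to the median they must agree. Both gave -0.73 on d 9 and -1.20 on d 16, so their agreement is no separate check on the spike-in rise.

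**Figure D3:**
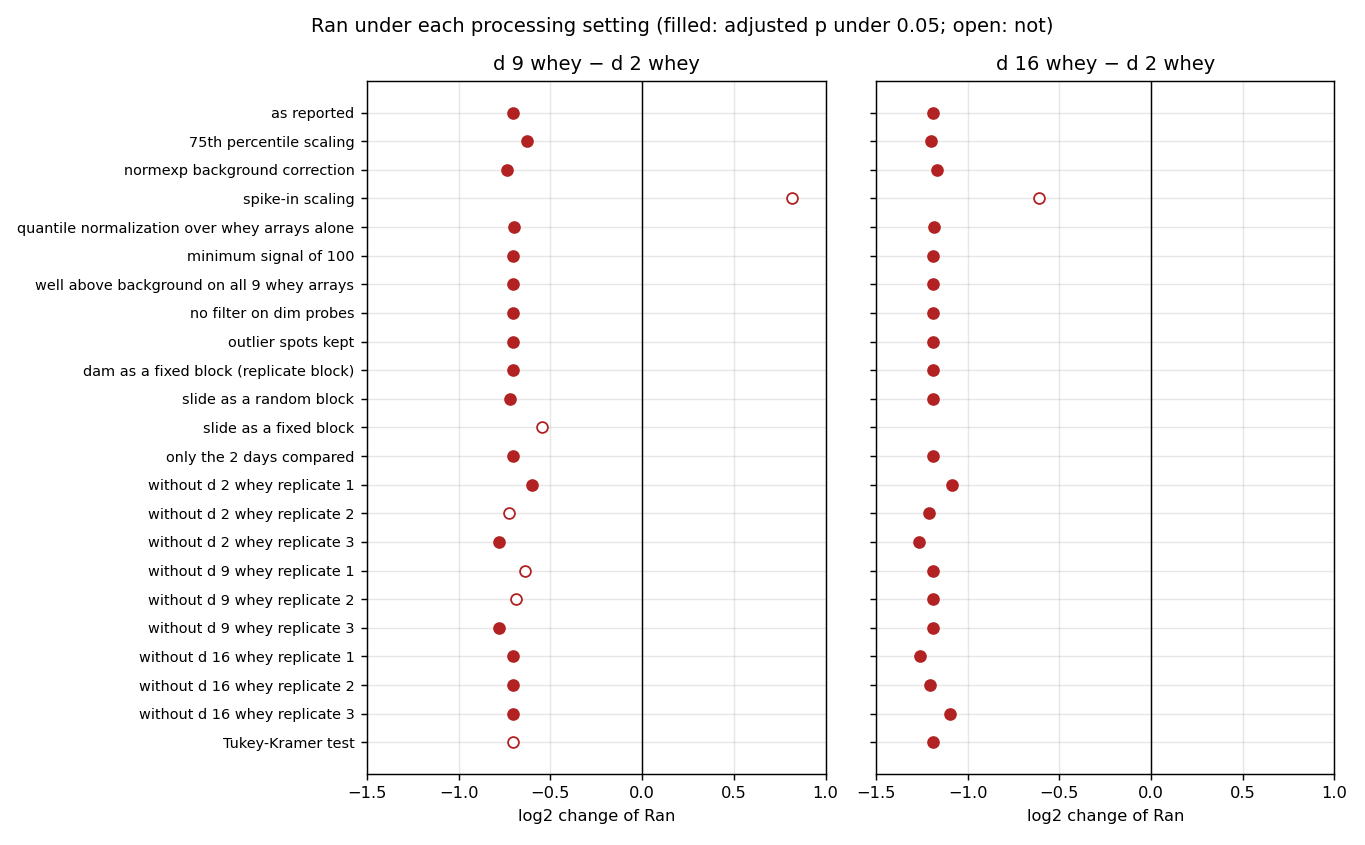
Log2 change of Ran (horizontal axis) on d 9 and on d 16, each against d 2, under each processing setting. Filled points passed an adjusted p of 0.05: the d 9 change lies at 0.82 with spike-in scaling and at or below -0.55 under all others shown, and the d 16 change lies between -1.27 and -0.61. Slide as a fixed block gives no value from d 2 to d 16.

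Markers of dividing cells had lower sums on the later days, as Ran did. The summed normalized signal of Cdc2, Top2a, Plk1 and Ccnb1 was 1203 to 2596 on d 2, 539 to 756 on d 9 and 62.8 to 137 on d 16. All 4 were well above background on every d 2 array, and 2 to 3 of them on the d 16 arrays, where Ccnb1 was not on any. Macrophage markers had their highest sums on d 16, with a summed normalized signal of 341 to 457 on d 2, 316 to 704 on d 9 and 1103 to 1622 on d 16 over 6 genes. Of these Cd14 ran the other way, with mean log2 signals of 8.11, 6.57 and 6.23 on d 2, d 9 and d 16, and Csf1r was not well above background on any whey array. The part of either in the change of Ran was not tested.

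The nuclear pair Drosha and Dgcr8 was measurable on every whey array, and neither was called different between days. The Drosha probe A_44_P445521 read 4.50, 4.19 and 4.57 on d 2, 4.45, 4.39 and 4.52 on d 9, and 4.55, 4.37 and 4.68 on d 16 in dams 1, 2 and 3. Dam 2 was lowest on each day, and the days overlapped. Its change was 0.03 from d 2 to d 9 (95% interval -0.30 to 0.36) and 0.12 from d 2 to d 16 (95% interval -0.21 to 0.44). Under quantile normalization a change past 1.5-fold in either direction thus lies outside both intervals. This bound does not hold with spike-in scaling, which gave 1.47 on d 9 and 0.70 on d 16 (limma adjusted p = 0.0728 and 0.665). The median tested probe itself moved by 1.55 and 0.59 under that scaling.

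The second Drosha probe, A_43_P21509, was dimmer and was well above background on 5 of 9 whey arrays. It read 3.22, 3.32 and 2.80 on d 2, 3.13, 3.44 and 3.28 on d 9, and 2.40, 3.08 and 3.64 on d 16. Its values overlapped between days and spread most on d 16, where the SD was 0.62 against 0.15 for the first probe. Over the 9 whey arrays the 2 Drosha probes did not run together (Pearson r = -0.12, across arrays that also share day and dam). Of its 3 intervals, which share 1 SE, that of d 16 against d 9 reached furthest from 0, at -0.95 to 0.46, so for this probe a change of nearly 2-fold lies within the error.

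Dgcr8, the double-stranded RNA-binding partner of Drosha, read 4.58, 4.46 and 4.80 on d 2. It read 3.79, 5.20 and 4.63 on d 9, and 4.40, 4.67 and 4.59 on d 16. The d 9 arrays held both the lowest and the highest of the 9 values, so the days overlapped fully. The SD on d 9 was 0.70, against 0.17 on d 2 and 0.14 on d 16. The changes were -0.07 on d 9 and -0.06 on d 16 against d 2, with intervals of -0.81 to 0.66 and -0.80 to 0.68. Without d 9 whey of dam 1 the d 9 change was 0.30 (adjusted p = 0.350), and without d 2 whey of dam 3 it was 0.02 (adjusted p = 0.980), so its sign is not settled.

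The export step was split between a measurable and an unmeasurable member. Xpo5 was not well above background on any of the 10 arrays. Its whey values of 1.08 to 1.24 lie at background, and it was not tested between days. On the serum array it read 5.94 after normalization from a processed signal of 7.93, also not well above background. Values at background have no order, so this is no difference between serum and whey.

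Tarbp2, the partner of Dicer, had the narrowest intervals of the 6 tested probes. It read 7.27, 7.28 and 7.37 on d 2, 7.15, 7.41 and 7.41 on d 9, and 7.25, 7.29 and 7.06 on d 16. The 9 values spanned 0.35 on the log2 scale, and the days overlapped. The change was 0.02 from d 2 to d 9 (95% interval -0.27 to 0.30), -0.11 from d 2 to d 16 (-0.39 to 0.18) and -0.12 from d 9 to d 16 (-0.41 to 0.17). Under quantile normalization a change past 1.5-fold lies outside all 3. With spike-in scaling the 3 changes were 1.54, 0.49 and -1.05 (limma adjusted p = 0.0629, 0.771 and 0.360), so the bound does not hold there. The median tested probe moved by 1.55, 0.59 and -0.95 under that scaling. No machinery probe was named for Dicer itself. A probe named only by an Ensembl transcript, and described in the files as a piece of Dicer1, was chosen after its values were seen and is no member. It was well above background on 5 of 9 whey arrays and was not called, with changes of 0.39 on d 9 and 0.35 on d 16 against d 2 and a lowest limma adjusted p of 0.574.

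Of the 4 Argonautes, which bind the mature miRNA, Ago2 alone was detected. Ago2 is the member that can cut a target mRNA, and its probe was well above background on 7 of 9 whey arrays. It read 2.83, 4.06 and 3.53 on d 2, 3.30, 3.58 and 4.11 on d 9, and 3.64, 3.83 and 4.02 on d 16. The daily means of 3.47, 3.66 and 3.83 were in this order, but the days overlapped and no comparison was called. The change from d 2 to d 16 was 0.36 (95% interval -0.41 to 1.12, limma adjusted p = 0.451), which leaves a rise of over 2-fold within the error. The first Ago1 probe, A_44_P578146, was well above background on 1 array, d 9 whey of dam 3, at 2.30. The second, A_42_P573610, and those of Ago3 and Ago4 were so on none. Their whey values reached from 0.82 to 2.49 for the second Ago1 probe, 1.05 to 2.91 for Ago3 and 1.13 to 1.29 for Ago4. At this signal, differences in these 3 genes were not detectable.

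Between dams, no machinery probe differed past the threshold. A limma F test for the dam, fitted beside the day, gave adjusted p-values from 0.511 (Ago2) to 0.879 (Tarbp2). The share of all tested probes called by this test was not counted, so the lack of calls is no result about the machinery.

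Ran and Tarbp2 were the members well above background in both whey and serum. Ran read 12.09 ± 0.54 over the whey arrays (SD, n = 9) and 10.58 in serum, a difference of 1.51 or 2.84-fold. The d 16 mean of 11.53 was the nearest of the 3 days to serum, but only the d 16 arrays shared slide and scan day with the serum array. Tarbp2 read 7.28 ± 0.12 in whey and 6.81 in serum, a difference of 0.46 or 1.38-fold. Both were higher on each of the 9 whey arrays than on the serum array, and neither passed 4-fold. Of the 4649 probes well above background on all 10 arrays, 8.84% passed 4-fold with whey the higher and 17.4% with serum the higher. With 75th percentile scaling the Ran difference was 2.25 and that of Tarbp2 1.15, and with spike-in scaling they were 5.09 and 3.99. The median tested probe was higher in whey by 1.16 with quantile normalization, by 0.55 with 75th percentile scaling and by 3.38 with spike-in scaling.

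Drosha, Dgcr8 and Ago2 were not well above background in serum, so their differences have no firm size. Serum was set to the dimmest probe that its array flagged as well above background, or the probe's own value where higher. With this, Dgcr8 was 9.82-fold higher in whey, Drosha 9.15-fold by the first probe and 3.67-fold by the second, and Ago2 5.21-fold. These folds are not lower bounds. On the serum array Xpo5 at 5.94 and Ago3 at 3.55 also lacked the flag. Of the 21254 probes above background by that flag on 1 or more of the 10 arrays, 27.1% were over 4-fold higher in the whey mean than in serum. That share uses each probe's own serum value and includes probes flagged in serum alone, so it is not on the same footing as the folds above. The folds of these genes also depend on how the dim serum array was scaled. With 75th percentile scaling the log2 differences, taken from the probes' own values, were 1.30 for Dgcr8, 1.09 and -0.04 for the Drosha probes and 0.38 for Ago2. Under normexp they came to 0.53 for Dgcr8, 0.35 and 0.13 for the Drosha probes and 0.36 for Ago2. The serum array thus gives no firm ratio for these genes.

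The wider pathway was described with 59 further genes in 6 lists, of which 50 were on the array and 41 had 1 or more tested probes, 68 in all. From d 2 to d 9, 4 of these probes were called higher and 8 lower (9 genes), against 17.6% of all tested probes called in either direction. On d 16, 4 were higher than on d 2 and 10 lower (11 genes), against 28.5%. Between d 9 and d 16, 0 were called by limma and 0 by the Tukey-Kramer test, and 16 had an unadjusted limma p under 0.05. The share of all tested probes at that unadjusted threshold was not counted, so the 16 cannot be read as a shift of the pathway. The median log2 change over the 68 probes was 0.01 on d 9 and -0.16 on d 16 relative to d 2, against 0.11 and 0.04 over all tested probes. Of the 26 called changes 9 turned from lower to higher with spike-in scaling. Among them were those of Rangap1, Ranbp1 and Hsp90aa1 on d 9 named below. Relative to the median tested probe, 0 turned under any of the 4 scalings. Percentile and spike-in scaling give the same values there by construction, so the 0 is no separate check on spike-in scaling. With normexp background correction 23 of the 26 were smaller, and 9 moved by over 1.5-fold, those of Lin28a, Piwil2, Ilf2 and Tnrc6b, the d 16 changes of both Rangap1 probes and that of 1 Ranbp1 probe. Among the probes called higher, Piwil2 on both days and Lin28a on d 16 were not well above background on any d 2 array. They entered the test only through the days on which they were high, so these calls lend the counts no support. The d 9 count rested on single arrays: it was 1 without d 2 whey of dam 2 or d 9 whey of dam 2, 4 without d 2 whey of dam 1, 6 without d 9 whey of dam 1 or dam 3, and 7 without d 2 whey of dam 3 or d 16 whey of dam 3. The d 16 count was 9 without d 2 whey of dam 2 or d 16 whey of dam 1. Calls over all tested probes were not set beside these counts, so the drops are not read as particular to the pathway.

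Probes of genes that run the Ran cycle were called lower beside Ran. Of 7 tested probes for 5 genes, 3 (2 genes) were called lower on d 9 and 5 (3 genes) on d 16 than on d 2. Of the 7, 0 were called higher, and 6.36% and 12.4% of all tested probes were called lower. Probes of the same gene are not independent, so the counts of probes overstate the number of separate calls. The median log2 change of the 7 was -0.83 and -1.28 in these comparisons. With spike-in scaling the d 9 median of the list turned to 0.68 and that of d 16 was -0.71, which is -0.87 and -1.30 relative to the median of all tested probes. Rangap1, which makes Ran hydrolyse its GTP, fell by 1.75 from d 2 to d 16 (SE 0.28, limma adjusted p = 0.00389), from 6.39 ± 0.10 to 4.64 ± 0.28 (SD, n = 3), and the change was -0.77 with normexp. Its other probe fell by 0.97 from d 2 to d 9 (adjusted p = 0.0285). Ranbp1, a cofactor of that step, fell by 1.35 from d 2 to d 16 (SE 0.19, limma adjusted p = 0.00263), from 7.13 ± 0.28 to 5.78 ± 0.23, and the change was -0.72 with normexp. Its other probe fell by 0.85 from d 2 to d 9 (adjusted p = 0.0388). Xpo1, an exportin for proteins that uses Ran, fell by 0.80 from d 2 to d 16 (adjusted p = 0.0202). Nutf2, which returns Ran to the nucleus, and Xpot, the exportin of transfer RNAs, were not called, with changes of 0.21 and -0.07 from d 2 to d 16.

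The other lists had calls in either direction or only a few. Over all tested probes, 11.3% were called higher and 6.36% lower on d 9 than on d 2, and 16% higher and 12.4% lower on d 16. Of the microprocessor helpers (14 tested probes, 9 genes), 2 were called lower on d 9 and 1 on d 16 than on d 2. Ilf2, a subunit of a double-stranded RNA-binding complex, was among them and fell by 1.50 from d 2 to d 16 (limma adjusted p = 0.00377), a change of -0.46 with normexp. Of the partners of Dicer and of Argonaute loading (19 probes, 7 genes), 2 were higher and 2 lower on d 9, and 1 higher and 3 lower on d 16. For Hspa8, a chaperone that helps to load Argonaute, 1 of 4 probes was called, higher by 0.56 on d 16 than on d 2 (adjusted p = 0.0212). The other Hspa8 probes changed by 0.46, 0.17 and -0.36 (adjusted p = 0.0619, 0.583 and 0.304), so the probes of this gene disagree. Of the 3 probes of the co-chaperone gene Fkbp4, 2 were called higher on d 9 than on d 2, by up to 0.52 (adjusted p = 0.0209). Of the 4 probes of Hsp90aa1, the chaperone Hsp90 alpha, 2 were called lower, by up to 0.85 (adjusted p = 0.0409), and all 4 had changes below 0.

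Of the silencing effectors (16 probes, 11 genes), 1 was higher and 1 lower in each comparison with d 2. Pabpc1, which binds poly(A) tails, was above d 2 by 0.64 on d 9 and by 0.82 on d 16 (SE 0.13 for both, limma adjusted p = 0.0155 and 0.00382), from 13.48 ± 0.10 on d 2 to 14.30 ± 0.13 on d 16. For Tnrc6b, a GW182 protein that ties Argonaute to deadenylation, 1 of 2 probes was called, with a change of -1.56 from d 2 to d 9 (SE 0.35, adjusted p = 0.0220), which was -0.52 with normexp. The other Tnrc6b probe changed by -0.54 (adjusted p = 0.185). In the turnover and tailing list (11 probes, 8 genes) 0 were called on d 9 by limma. An unadjusted limma p under 0.05 was found for 1 there, a share not counted over all tested probes. On d 16, 1 was called higher. This was Lin28a, which binds let-7 precursors. It was well above background on 3 of 3 arrays on d 16 and on 0 of 3 on d 2, and the log2 change was 1.23, or 1.17 with 75th percentile scaling and 0.29 with normexp. The germline list had 1 tested probe, Piwil2, well above background on 0 of 3 arrays on d 2 and on 2 of 3 on each later day. Its log2 change from d 2 was 1.91 on d 9 and 2.46 on d 16, which was 1.45 and 2.14 with 75th percentile scaling and 0.18 and 0.27 with normexp. The size of neither change is settled, since the d 2 level is at background. Lin28a and Piwil2 fall outside the naming rule, which asks for signal on every array, and were named after their values were seen.

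**Figure D4:**
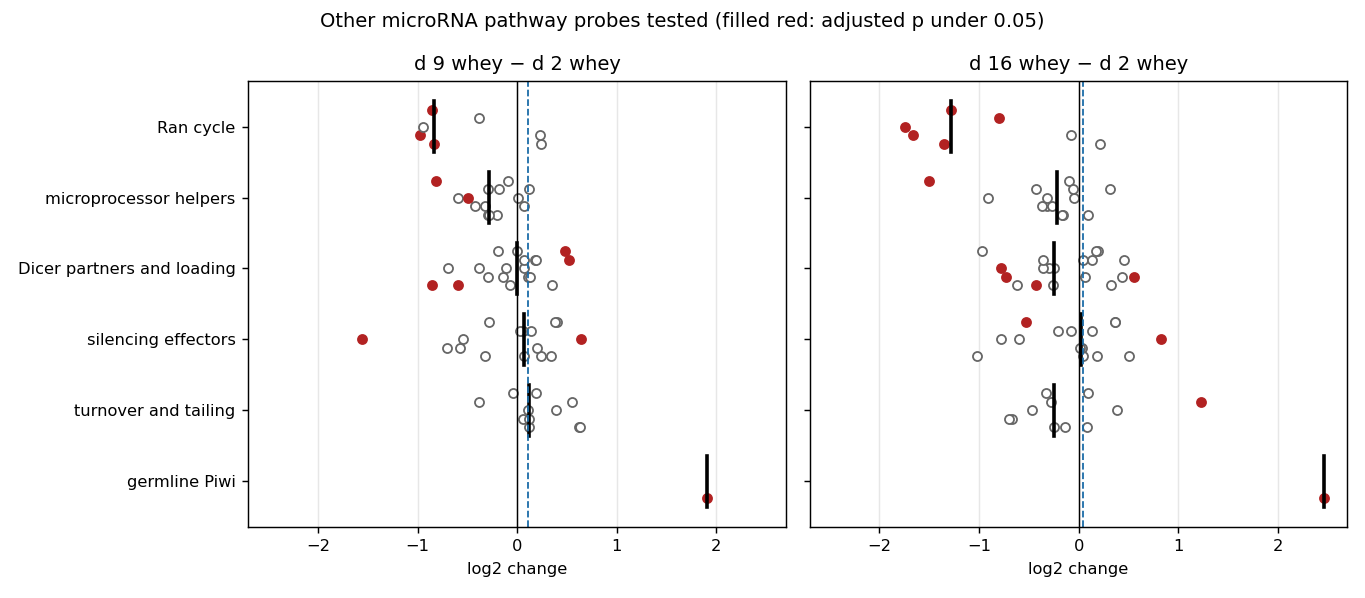
Log2 change (horizontal axis) of each tested probe of the 6 pathway lists on d 9 and on d 16, each against d 2. Filled red points passed an adjusted p of 0.05, black bars are list medians and the dashed line is the median of all tested probes: the Ran cycle has medians of -0.83 and -1.28 and no called probe to the right of 0.

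The probes whose pattern over the 9 whey arrays was most like that of each member were taken from 7267 named probes that had signal on each of these arrays. These are correlations across arrays that share day, dam and scaling, given as a description. Each named probe is among the highest of 7267 over only 9 arrays, so its r is high in part by selection and was not tested. For Ran they were Rasl2-9 (r = 0.994), Pold2 (r = 0.991), a DNA polymerase delta subunit, and Mcm7 (r = 0.990), a subunit of the replicative helicase. Rasl2-9 encodes a close relative of Ran, so the readings of both are uncertain where the transcripts are alike. Their probes do not lie on each other, and whether the Rasl2-9 probe binds Ran mRNA was not tested. For Tarbp2 they were Psme2 (r = 0.966), Rpl21 (r = 0.925) and Psmd7 (r = 0.923). For Drosha they were Canx (r = 0.869), Zfp651 (r = 0.859) and Rfng (r = 0.824), and for Dgcr8 Tssc4 (r = 0.900), Wbp4 (r = 0.886) and Bag2 (r = 0.881). Dgcr8 and Tarbp2 had the highest correlation between 2 machinery probes, at r = 0.61, and Drosha and Dgcr8 had r = 0.01 by the first Drosha probe.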

How the data were processed

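Total RNA of whey and serum was purified by the authors, and cRNA labelled with cyanine 3 was made from 100 ng of it per array and hybridized to Agilent Whole Rat Genome arrays (1 colour, probes of 60 bases). Groups and dam numbers came from the sample titles. Scans were read by the authors with Agilent Feature Extraction 9.5.3.1, and the deposited spot measure used here is its processed signal, a linear intensity with background subtracted and spatial trend removed, which has had no normalization between arrays. Other deposited values used are flags of 0 or 1 for spots well above background and for outliers. A deposited table of the whole series held 10 columns whose names match no sample label, and it was not used.

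Here these signals were put on the log2 scale and quantile normalized across the 10 arrays, without control spots and with outlier spots set to missing, and spots of a probe were averaged. R 4.3.3 with limma 3.58.1 (lmFit and eBayes, two-sided) was fitted to the 9 whey arrays, and p-values were Benjamini-Hochberg adjusted over the 16852 probes detected in whey, at a threshold of 0.05. All adjusted p-values come from this fit unless another test is named. The 3 days shared 1 estimate of the spread. The script was tested on simulated data. With 3 arrays per day, the number of arrays limits the precision.

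Every probe with a member's name is reported. Where a gene had 2 probes, the one well above background on more arrays stood first. Up to 4 pathway genes in each direction were named per comparison, by size of change among called probes well above background on all arrays of both days. The members and lists were chosen with earlier results of these data known. Names were checked against a RefSeq table (assembly GRCr8), which matched 16815 of 20503 accessions, and positions are those of the files (rn4). Probe sequences are those in the files, compared with numpy.

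The dam numbers pair the samples, since the same animals were milked on each day. Deviations from the day means correlated at -0.02 to 0.22 between arrays of the same dam (9 pairs) and at -0.25 to 0.16 between dams (18 pairs). Alternatives were 75th percentile and spike-in scaling, normexp background correction with an offset of 50, normalization over whey alone, other filters, outlier spots kept, blocks for dam and slide, fits of only the days compared, the Tukey-Kramer test named in the study's methods, and each array left out in turn.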

Additional observations from a re-analysis of the deposited data

How the results depend on the processing

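With dam as a replicate block, the pairing changed no call of a machinery probe. Against d 2, Ran changed by -0.70 on d 9 (limma adjusted p = 0.0351) and by -1.19 on d 16 (adjusted p = 0.00690), and the pathway counts were 11 on d 9 and 17 on d 16 against d 2 and 0 on d 16 against d 9. The machinery count from d 2 to d 9 was 0 in place of 1 with spike-in scaling, with slide as a fixed block and with the Tukey-Kramer test, and 0 to 1 with each array left out. Between d 2 and d 16 it was 0 with spike-in scaling and 1 with each array left out, and the F test over the 3 days likewise gave 0 and 1. From d 9 to d 16 it was 0 with each array left out. The cause of these losses was not tested. The pathway count from d 2 to d 9, 12 as reported, was 19 with spike-in scaling, 7 with no filter on dim probes, 0 with slide as a fixed block, 2 with only the 2 days compared, 2 with the Tukey-Kramer test and 1 to 11 with each array left out. For d 16 against d 2, 14 as reported, it was 1 with spike-in scaling and 9 to 15 with each array left out. For d 16 against d 9, 0 as reported, it was 3 with normexp, 1 with a minimum signal of 100, 1 with signal on all 9 whey arrays, 1 with no filter, 1 with slide as a random block and 0 with each array left out. Over all tested probes, spike-in scaling called 7032 on d 9 and 704 on d 16 against d 2, in place of 2969 and 4801. Normexp called 842 on d 16 against d 9, in place of 239. Counts under the other settings are given without that of all probes, so none is read as particular to the machinery or pathway. A minimum signal of 100 gave 2 detected machinery genes on each of d 2, d 9 and d 16, and asking for a signal well above background on every array gave 2 in serum.

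Apart from Ran, the machinery changes that turned sign were uncalled. Against d 2, spike-in scaling gave Ran 0.82 and Dgcr8 1.38 on d 9, and the second Drosha probe 0.47, Dgcr8 0.54 and Tarbp2 0.49 on d 16, and from d 9 to d 16 it gave the first Drosha probe -0.77, Dgcr8 -0.84 and Ago2 -0.65. Normexp gave the first Drosha probe -0.0066 from d 2 to d 9, the second 0.0218 from d 2 to d 16, and between d 9 and d 16 the second 0.0105 and Dgcr8 -0.0166, which was -0.0016 with slide as a random block. With slide as a fixed block the first Drosha probe changed by -0.12 and Tarbp2 by -0.0463 from d 2 to d 9. With each array left out, the ranges that crossed 0 were, from d 2 to d 9, -0.0810 to 0.11 for the first Drosha probe, -0.40 to 0.30 for Dgcr8, -0.0284 to 0.10 for Tarbp2 and -0.13 to 0.49 for Ago2. For d 16 against d 2 they were -0.38 to 0.25 for the second Drosha probe and -0.13 to 0.0335 for Dgcr8, and against d 9 -0.55 to 0.0769 for the second Drosha probe, -0.36 to 0.34 for Dgcr8 and -0.0189 to 0.39 for Ago2. With 75th percentile scaling the second Drosha probe differed by -0.0445 between whey and serum.

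Signal over background limits the reading of Xpo5, Ago1, Ago3 and Ago4, whose probes were too dim to be tested between days. Slide 1 held d 2 arrays alone and slide 3 no other whey than that of d 16, so the comparisons with d 16 have no estimate with slide as a fixed block. Serum rests on 1 dim array.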
